A study of Mus musculus with 12 samples.

Results

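The class II and class IV histone deacetylases of the mouse are encoded by 7 genes, and their transcripts were followed in calvariae (skull roofs) of C57BL/6 embryos at embryonic day 17.5. The members were taken by gene symbol. Hdac4, Hdac5, Hdac7 and Hdac9 make up class IIa, Hdac6 and Hdac10 class IIb, and Hdac11 alone class IV. Each of the 7 symbols matched 1 of the 39179 Ensembl gene identifiers in the count files, and all 7 passed the filter on low counts that left 17967 genes for testing.

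RNA was sequenced in 12 libraries, 3 in each of 4 groups: Runx2+/- embryos of dams given MS-275, WT embryos of dams given MS-275, Runx2+/- embryos of dams given vehicle and WT embryos of dams given vehicle. The parents, WT and Runx2+/-, were mated at 8 weeks of age. MS-275 was injected into the peritoneum of the pregnant dam at 10 mg per kg on days 14.5 and 16.5 post coitum, so the embryos met the drug through the dam. Runx2+/- embryos are heterozygous for Runx2, the gene of a transcription factor without which no osteoblasts form, and the labels do not say which part of the gene is deleted. They do not say either whether the 3 libraries of a group came from separate embryos or litters, so every p-value below measures only the spread between these libraries.

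Histone deacetylases remove acetyl groups from lysines of histones and of other proteins. Class IIa enzymes have little catalytic activity of their own on acetyl-lysine. They bind MEF2 and RUNX2 transcription factors and repress their target genes, in part by bringing in corepressor complexes that hold HDAC3. Kinases of the CaMK, PKD and SIK families phosphorylate them, 14-3-3 proteins then hold them in the cytoplasm, and their targets are released. In the mouse skeleton HDAC4 restrains chondrocyte hypertrophy, and HDAC4, HDAC5 and HDAC7 have all been described as brakes on RUNX2. HDAC6 is a cytoplasmic enzyme that deacetylates alpha-tubulin, HDAC10 deacetylates polyamines, and HDAC11 removes long fatty acyl groups from lysines. MS-275 (entinostat) is a benzamide inhibitor whose main targets are among the class I histone deacetylases, not necessarily all of them. It acts little on the class II enzymes, so the transcripts described here are of family members that are not the main targets of the drug.

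Each library held 13307456 to 19399760 counts in genes, and a member had 57 to 1932 counts in a library. Levels are given as CPM (counts scaled to the size of the library), with libraries scaled by TMM (a trimmed mean of M values). The floor that 3 counts set in a library was 0.120 to 0.279 CPM, and every member lay far above it. Osteoblast markers (Sp7, Bglap, Ibsp, Col1a1, Alpl, Dmp1) were found in every group, none of them at 0, with a summed level of 1545 to 32199 CPM in Runx2+/- with MS-275, 25959 to 36924 CPM in WT with MS-275, 3630 to 11448 CPM in Runx2+/- with vehicle and 5396 to 7568 CPM in WT with vehicle. Replicate 3 of Runx2+/- MS-275 went against the other MS-275 libraries. It had the lowest osteoblast sum of all 12 libraries, and its epidermis markers summed to 1618 CPM, beside 7.34 to 16.0 CPM in the other 5 MS-275 libraries and 1098 to 3906 CPM in the vehicle libraries. In both sums it lay nearer to the vehicle libraries, and whether its label is right was not tested. It did not match them throughout, since its chondrocyte markers summed to 157 CPM, beside 309 to 966 CPM in the vehicle libraries. Why it differed was not tested, and every value of Runx2+/- MS-275 below is given as labelled. Replicate 3 of Runx2+/- vehicle and replicate 3 of WT vehicle also stood apart from their groups: lens markers summed to 13.0 and 11.3 CPM there, against 640 to 897 CPM in the other 4 vehicle libraries. Results below are therefore also given without these 3 libraries, a choice made after the data were seen.

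Under MS-275 Runx2 itself had 84.1, 93.5 and 34.1 CPM in Runx2+/- embryos, against 111, 131 and 88.2 CPM in WT embryos. Under vehicle it had 65.3, 32.8 and 58.1 CPM in Runx2+/- embryos, against 45.5, 42.4 and 46.1 CPM in WT embryos. The genotypes overlapped under vehicle and under MS-275. Counts summed over a gene do not separate its alleles, so the genotype is given as labelled.

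Set beside each other per length of gene, the family fell into an abundant set of 5 and a scarce pair. CPM was divided by the kilobases of merged exons of each gene (GENCODE M21, GRCm38), and over the 12 libraries the mean level was 8.10 CPM per kb for Hdac7, 7.29 for Hdac5, 6.24 for Hdac11, 5.91 for Hdac6, 5.17 for Hdac10, 1.03 for Hdac9 and 0.63 for Hdac4. Among the first 5 the ranges of neighbours in this order overlapped. Hdac7 lay above Hdac5 in 7 of 12 libraries, Hdac5 above Hdac11 in 10, Hdac11 above Hdac6 in 8 and Hdac6 above Hdac10 in 8. Hdac10 lay above Hdac9 in 12 of 12 libraries with no overlap of the ranges, and Hdac9 above Hdac4 in 12 of 12, although the ranges of this last pair overlapped. With the longest coding transcript as the length, Hdac5 (13.2 CPM per kb) and Hdac7 (13.0) changed places at the top, and Hdac9 (1.90) and Hdac4 (1.23) remained the lowest.

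**Figure D1:**
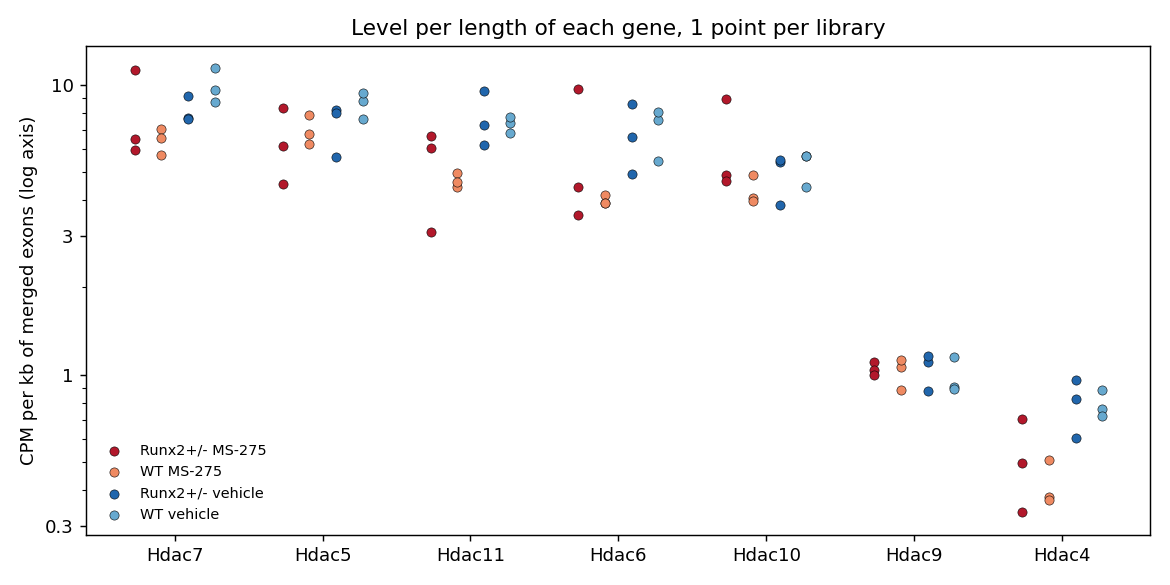
Level of each gene in CPM per kb of merged exons, on a log axis, with 1 point per library and the 4 groups side by side. Hdac7, Hdac5, Hdac11, Hdac6 and Hdac10 overlap between about 3 and 11 CPM per kb, while Hdac9 and Hdac4 lie lower in every library.

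Within class IIa, Hdac7 and Hdac5 carried nearly all of the transcripts per length. Hdac7 made up 49.4% ± 4.24 of the class IIa sum in Runx2+/- MS-275, 43.3% ± 1.00 in WT MS-275, 47.5% ± 4.06 in Runx2+/- vehicle and 48.8% ± 5.63 in WT vehicle (mean ± SD, n = 3 each). Hdac5 made up 40.1% ± 2.45, 46.8% ± 1.26, 41.8% ± 3.46 and 42.4% ± 4.86 of it in the same 4 groups. Hdac9 held 4.85% to 7.08% and Hdac4 2.81% to 4.56% of the sum, as group means. Shares of these sizes are means over a whole tissue and do not show which cells hold which enzyme.

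Hdac4 (ENSMUSG00000026313, chr1:91928779-92195699, minus strand, GENCODE M21, GRCm38) encodes the class IIa enzyme that holds back MEF2 and RUNX2 in growth plate cartilage. Its level in WT embryos was 8.01, 5.98 and 5.87 CPM with MS-275, against 12.0, 14.01 and 11.4 CPM with vehicle. All 3 MS-275 libraries lay below all 3 vehicle libraries, at 0.531 of the vehicle level (log2 fold change −0.91, SE 0.30, 95% interval −1.57 to −0.26), with an edgeR adjusted p of 0.0515. In Runx2+/- embryos it had 5.29, 11.1 and 7.83 CPM with MS-275, against 15.2, 13.0 and 9.58 CPM with vehicle (log2 fold change −0.64, SE 0.29, edgeR adjusted p = 0.243). The groups overlapped through replicate 2 of MS-275 and replicate 3 of vehicle, a library that stood apart. An antisense long noncoding gene, Gm26720, shares 3536 bases with the exons of Hdac4 on the opposite strand. The sources used here do not give the strand setting used in counting, so reads of this overlap cannot be assigned with certainty, although Gm26720 itself had only 80 counts over all 12 libraries.

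The 150 bases before the RefSeq start of Hdac4, Hdac5 and Hdac6 are printed, as the members with 1 RefSeq start whose window lies outside annotated exons, beside those before a start of Hdac9, the member with the smallest log2 fold change in WT. Capitals mark matches, on either strand, to the GC box (GGGCGG), the CCAAT box (CCAAT), the MEF2 pattern and the AP-1 pattern (TGANTCA). Each sequence is written 5′ to 3′ along the gene, which is on the minus strand in all 4 cases, from the RefSeq promoters of GRCm38.p6. The windows are chr1:92180342-92180491 for Hdac4, chr11:102230173-102230322 for Hdac5, chrX:7947890-7948039 for Hdac6 and chr12:34528890-34529039 for the downstream start of Hdac9.
Hdac4: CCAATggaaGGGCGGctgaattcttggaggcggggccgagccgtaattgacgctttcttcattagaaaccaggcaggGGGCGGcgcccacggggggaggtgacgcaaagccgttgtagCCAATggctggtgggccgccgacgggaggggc
Hdac5: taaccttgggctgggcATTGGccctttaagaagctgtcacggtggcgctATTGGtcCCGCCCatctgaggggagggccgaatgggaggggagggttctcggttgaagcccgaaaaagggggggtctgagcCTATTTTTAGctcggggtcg
Hdac6: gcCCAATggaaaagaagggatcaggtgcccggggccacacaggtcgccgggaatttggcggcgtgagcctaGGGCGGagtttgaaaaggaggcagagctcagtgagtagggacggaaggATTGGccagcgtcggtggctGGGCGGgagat
Hdac9: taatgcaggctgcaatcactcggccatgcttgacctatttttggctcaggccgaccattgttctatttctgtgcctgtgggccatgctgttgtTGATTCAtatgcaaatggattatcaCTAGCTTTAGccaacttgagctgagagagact

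Hdac4 and Hdac6 each showed 2 GC boxes and 2 CCAAT boxes in this stretch, and Hdac5 showed 1 GC box, 2 CCAAT boxes and 1 MEF2 pattern close to the start. The Hdac9 stretch held 1 match to the MEF2 pattern and 1 to the AP-1 pattern, and neither of the other motifs. The free bases of the MEF2 match were GCTT in Hdac9 and TTTT in Hdac5, so the Hdac9 core is not made of A and T alone. No marked motif overlapped another. Over the full 250 bases before the start, a GC box occurs in 32.7% of the 32851 promoters of the table, a CCAAT box in 33.8%, the MEF2 pattern in 3.20%, the AP-1 pattern in 6.75% and a RUNX motif (TGTGGT) in 14.05%. That full window held 23 CpG dinucleotides in Hdac4, 12 in Hdac5 and 17 in Hdac6, against 2 at the downstream start of Hdac9, 0 at its upstream start and a median of 6 over all promoters. The windows not printed gave no single picture. The 4 starts of Hdac7 had 5, 25, 21 and 6 CpG dinucleotides and no CCAAT box, with 1 GC box at the second of them alone, and the window of Hdac11, which lies partly in annotated exons, had 17 CpG dinucleotides, 1 GC box and 1 CCAAT box. Members that lay lower with MS-275 in WT thus differed in these motifs among themselves. The RUNX motif was found in the full window of Hdac6 alone, 1 time, outside the stretch shown. These matches describe letters in a window, and nothing in the deposited counts measures binding there. Of the 7 genes, 6 matched the table, and Hdac10 did not.

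Hdac5 (ENSMUSG00000008855, chr11:102194432-102230166, minus strand), whose product represses Sost in osteocytes of the mouse, had 69.1, 59.3 and 54.9 CPM in WT MS-275, against 77.1, 82.2 and 66.8 CPM in WT vehicle. Replicate 1 of the MS-275 group lay inside the vehicle range, and the log2 fold change was −0.30 (SE 0.23, edgeR adjusted p = 0.304). In Runx2+/- embryos it had 39.9, 54.2 and 72.9 CPM with MS-275, against 71.8, 70.0 and 49.7 CPM with vehicle (log2 fold change −0.20, SE 0.23, edgeR adjusted p = 0.648). The highest MS-275 value was that of replicate 3, the library that stood apart, and the lowest vehicle value was that of replicate 3 as well.

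Hdac7 (ENSMUSG00000022475, chr15:97792664-97844502, minus strand) encodes the class IIa enzyme best known for keeping blood vessels intact in the mouse embryo. WT embryos had 47.7, 44.2 and 38.6 CPM with MS-275, against 58.8, 64.8 and 77.2 CPM with vehicle. These groups did not overlap (log2 fold change −0.62, SE 0.24, 95% interval −1.15 to −0.09, edgeR adjusted p = 0.0721). Summed markers of endothelium were at 566 to 751 CPM in WT MS-275 against 256 to 377 CPM in WT vehicle, with 1 of 6 markers called higher, 0 called lower and none at 0. In Runx2+/- these sums overlapped, at 211 to 823 CPM with MS-275 and 232 to 312 CPM with vehicle. The part of endothelium in the level of Hdac7 was not tested. Runx2+/- embryos had 40.1, 43.8 and 76.2 CPM of Hdac7 with MS-275, against 61.8, 52.1 and 51.7 CPM with vehicle. Replicates 1 and 2 of this MS-275 group lay below every vehicle library and replicate 3 above them all (log2 fold change −0.05, SE 0.24, edgeR adjusted p = 0.922). The last 29 bases of Hdac7 overlap Slc48a1 on the opposite strand, a gene with 8938 counts over the 12 libraries.

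Hdac9 (ENSMUSG00000004698, chr12:34047580-34917095, minus strand), a class IIa gene known for its part in muscle and heart, was the steadiest of the 7. Its level was 13.0, 15.6 and 16.5 CPM in WT MS-275, against 13.3, 16.9 and 13.1 CPM in WT vehicle (log2 fold change 0.06, SE 0.19, 95% interval −0.36 to 0.48, edgeR adjusted p = 0.803). In Runx2+/- embryos it was 16.3, 15.2 and 14.6 CPM with MS-275, against 16.2, 17.1 and 12.9 CPM with vehicle (log2 fold change −0.00, SE 0.19, edgeR adjusted p = 0.990). All 4 groups overlapped. Replicate 3 of Runx2+/- MS-275 was the highest of its group for Hdac5, Hdac6, Hdac7, Hdac10 and Hdac11, but lay within the range of the vehicle libraries for Hdac9. The interval in WT still holds differences of either sign. Skeletal muscle markers summed to 167 to 1267 CPM in WT MS-275 against 2035 to 3769 CPM in WT vehicle, with 2 of 6 called lower and none at 0. In Runx2+/- these sums overlapped, at 1953 to 2426 CPM with MS-275 and 988 to 3631 CPM with vehicle. The part of muscle in the level of Hdac9 was not tested.

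Hdac6 (ENSMUSG00000031161, chrX:7930120-7947889, minus strand) encodes the tubulin deacetylase of class IIb. Its level in WT was 24.3, 22.7 and 22.8 CPM with MS-275, against 44.0, 47.1 and 31.8 CPM with vehicle. The MS-275 libraries were tightly grouped below the vehicle libraries, at 0.568 of their level (log2 fold change −0.82, SE 0.35, 95% interval −1.59 to −0.04, edgeR adjusted p = 0.0948). In Runx2+/- embryos it had 20.6, 25.8 and 56.2 CPM with MS-275, against 38.4, 50.2 and 28.6 CPM with vehicle. Replicate 3 of MS-275 was the highest of all 12 libraries, while replicates 1 and 2 lay below every Runx2+/- vehicle library (log2 fold change −0.19, SE 0.35, edgeR adjusted p = 0.774).

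Hdac6 is X-linked, and the sex of the embryos is not given in the labels. Xist, the RNA of the inactive X chromosome, stood at 2.34, 1603 and 2555 CPM with MS-275 in WT, against 1839, 1.96 and 2.32 CPM with vehicle. In Runx2+/- it stood at 2721, 3056 and 3444 CPM with MS-275, against 2.77, 2042 and 3677 CPM with vehicle. Every Runx2+/- MS-275 library was thus high in Xist, unlike the groups it is compared with, and the part of sex in those comparisons was not tested. Among the WT libraries low in Xist, Hdac6 had 24.3 CPM in the 1 MS-275 library, against 47.1 and 31.8 CPM in the 2 vehicle libraries. Among those high in Xist it had 22.7 and 22.8 CPM with MS-275, against 44.0 CPM with vehicle. Each of these comparisons rests on 1 or 2 libraries of a group, and the part of sex in the Hdac6 level was not tested. With the log2 level of Xist as a covariate the log2 fold change of Hdac6 in WT was −0.82 (edgeR adjusted p = 0.135), in a fit that called 0.0% of all genes.

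Hdac10 (ENSMUSG00000062906, chr15:89123307-89128700, minus strand), the class IIb polyamine deacetylase, had 13.8, 13.4 and 16.5 CPM in WT MS-275, against 19.2, 19.1 and 15.0 CPM in WT vehicle. The groups overlapped (log2 fold change −0.29, SE 0.27, edgeR adjusted p = 0.397). In Runx2+/- embryos it had 16.5, 15.8 and 30.2 CPM with MS-275, against 18.3, 18.6 and 13.0 CPM with vehicle. It was the only member with a positive log2 fold change there (0.33, SE 0.27, edgeR adjusted p = 0.505), and the value turned to −0.04 without replicate 3 of Runx2+/- MS-275.

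Hdac11 (ENSMUSG00000034245, chr6:91156665-91174692, plus strand), the only class IV gene, had 19.1, 17.1 and 17.8 CPM in WT MS-275, against 28.5, 29.9 and 26.4 CPM in WT vehicle. Both groups were narrow and did not overlap (log2 fold change −0.65, SE 0.27, 95% interval −1.24 to −0.06, edgeR adjusted p = 0.0826). With MS-275, Runx2+/- embryos had 12.0, 23.3 and 25.6 CPM, against 28.0, 36.6 and 23.8 CPM with vehicle (log2 fold change −0.54, SE 0.27, edgeR adjusted p = 0.272). Replicate 3 of MS-275 and replicate 3 of vehicle made these groups overlap.

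**Figure D2:**
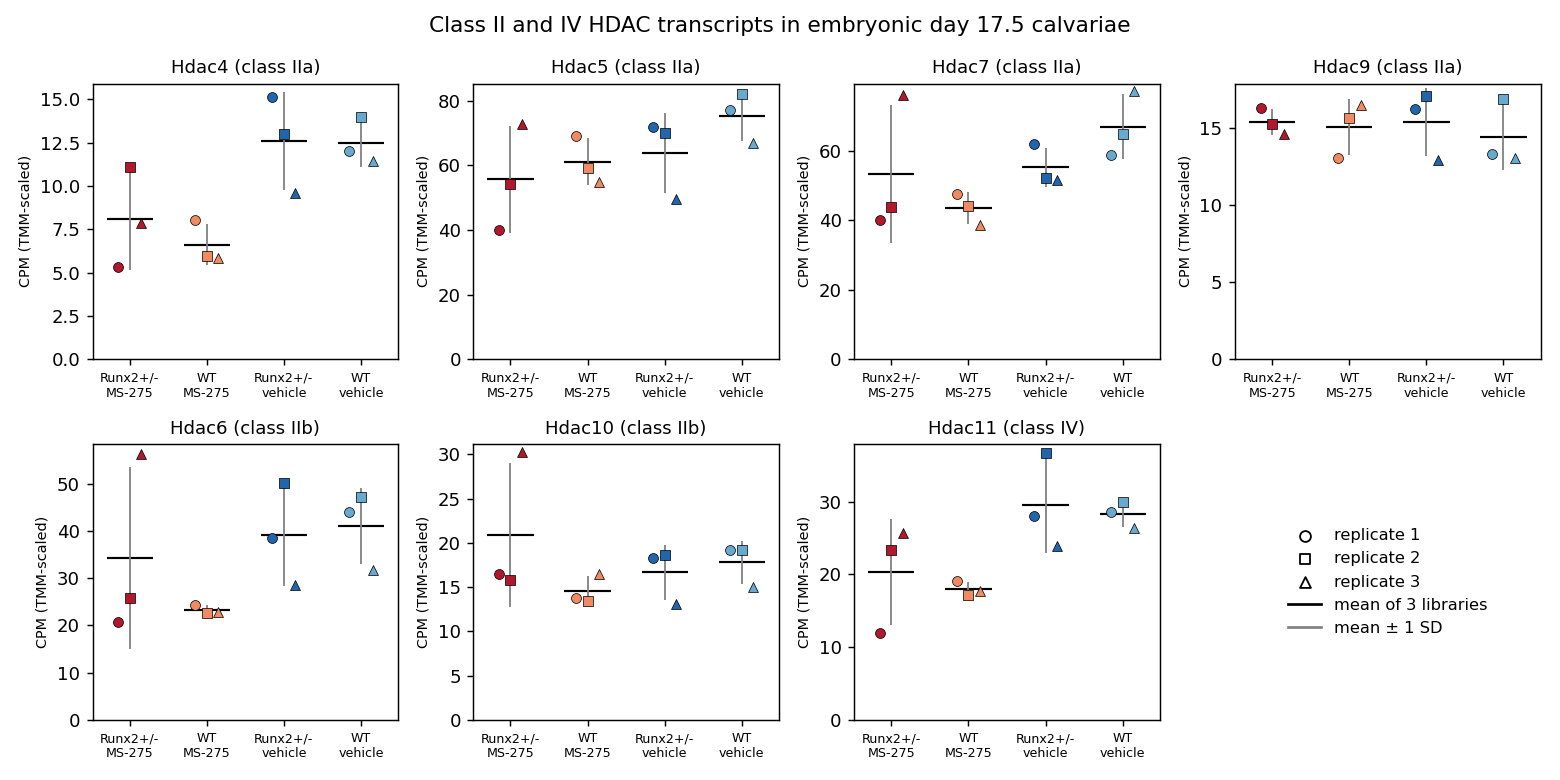
Level of each of the 7 genes in TMM-scaled CPM in every library (circle, square and triangle for replicates 1, 2 and 3), with the group mean as a black bar and ± 1 SD as a grey line. Hdac4, Hdac6, Hdac7 and Hdac11 lie lower in all 3 WT MS-275 libraries than in all 3 WT vehicle libraries, Hdac9 stays level, and replicate 3 of Runx2+/- MS-275 is the highest point of its group for Hdac5, Hdac6, Hdac7, Hdac10 and Hdac11.

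The comparison of MS-275 with vehicle in WT asks how the drug bears on the deacetylases it does not chiefly target. Members from all 3 classes lay lower with MS-275: Hdac4 and Hdac7 of class IIa, Hdac6 of class IIb and Hdac11 of class IV. These 4 of 7 had all MS-275 libraries below all vehicle libraries, where 27.5% of all genes tested did so, and 0 of 7 lay above with no overlap, where 27.3% of all genes did. The log2 fold change was negative in 6 of 7, with a median of −0.62 beside −0.13 over all genes tested. At an adjusted p under 0.05 by edgeR's quasi-likelihood F test 0 of the 7 were called, beside 19.0% of all genes (1738 higher and 1676 lower), and 4 of 7 had an unadjusted p under 0.05, beside 47.4% of all genes. DESeq2 called Hdac4 and Hdac7, beside 40.2% of all genes, and limma-voom called none of the 7, with 1 gene called in all (0.00557%).

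All 12 libraries share 1 estimate of the spread in the fit, so a library outside WT can move a call in WT. Without replicate 3 of Runx2+/- MS-275 the WT fold changes stayed as they were, 46.6% of all genes were called, and Hdac4, Hdac6, Hdac7 and Hdac11 were among them (edgeR adjusted p of 0.0102 to 0.0489). Without replicate 1 of Runx2+/- MS-275, Hdac4 and Hdac11 were called, beside 30.4% of all genes. Without replicate 2 of Runx2+/- MS-275, or without replicate 1 or 2 of Runx2+/- vehicle, edgeR called 0 genes in WT. With the 3 libraries that stood apart left out, 5 of 7 members were called lower, Hdac10 (log2 fold change −0.40) being the fifth, beside 60.3% of all genes. A share of called members near that of all genes says nothing particular of the family.

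The choice of scale moved every value together. Scaled by library size alone, the median of all genes in WT was −0.95 in place of −0.13, since TMM factors in WT were 0.598 to 0.820 with MS-275 and 1.18 to 1.32 with vehicle. On that scale Hdac9 had a log2 fold change of −0.79 and 5 of 7 members were called lower, beside 39.0% of all genes called lower. A change of scale shifts all genes by nearly the same amount. Values relative to the median of all genes were therefore bound to stay close, and their closeness is no test of the scale. They were −0.77 by library size and −0.79 by TMM for Hdac4, −0.70 and −0.69 for Hdac6, and −0.48 and −0.50 for Hdac7. For Hdac11 they were −0.53 and −0.53, and for Hdac9 0.16 and 0.19.

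Whole calvariae were sequenced, so fewer cells of a type and less RNA per cell cannot be told apart. The markers of other cell types moved with MS-275 in WT. Epidermis markers were called lower in 6 of 6, with a sum of 11.3 to 13.7 CPM in WT MS-275 against 1249 to 3906 CPM in WT vehicle. Neuron markers summed to 25.1 to 267 CPM in WT MS-275 against 81.0 to 1376 CPM in WT vehicle (1 of 8 called lower), and lens markers to 6.84 to 9.58 CPM against 11.3 to 897 CPM (0 of 6 called, with Lim2 at 0 in WT MS-275). Osteoblast markers were called higher in 4 of 6 and osteoclast markers in 2 of 6, the osteoclast sum being 1926 to 2184 CPM in WT MS-275 against 216 to 453 CPM in WT vehicle. Chondrocyte markers (670 to 1350 CPM against 309 to 797 CPM) were called higher in 1 of 6. Adipocyte markers (111 to 195 CPM against 35.2 to 243 CPM, Plin1 at 0 in WT MS-275) and erythroid markers (130 to 308 CPM against 135 to 203 CPM) were each called lower in 1 of 6. Their part in the levels of the 7 genes was not tested.

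The same comparison in Runx2+/- gave log2 fold changes closer to 0 for 6 of 7 members, Hdac10 being the other, and none was called. The log2 fold changes had a median of −0.19, beside −0.04 over all genes, and 0 of 7 were called, where 0.0% of all 17967 genes were. At an unadjusted p under 0.05 there were 3782 genes, and DESeq2 called 1220. No member was without overlap between the groups, where 8.56% of all genes lay below and 6.33% above with no overlap. Hdac4 (−0.64) and Hdac11 (−0.54) had the largest differences, and DESeq2 called 0 of the 7.

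Leaving out replicate 3 of Runx2+/- MS-275 moved several of these values. Without it, the log2 fold change was −0.75 for Hdac6, −0.74 for Hdac11, −0.62 for Hdac4, −0.44 for Hdac5, −0.40 for Hdac7, −0.04 for Hdac10, against 0.33 with it, and 0.03 for Hdac9. Hdac6 was then called (edgeR adjusted p = 0.0463), beside 32.7% of all genes. Without all 3 libraries that stood apart, Hdac6 (−0.98), Hdac11 (−0.91), Hdac5 (−0.64) and Hdac7 (−0.50) were called lower, beside 52.8% of all genes, and Hdac4 was not (−0.82, edgeR adjusted p = 0.0752).

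**Figure D3:**
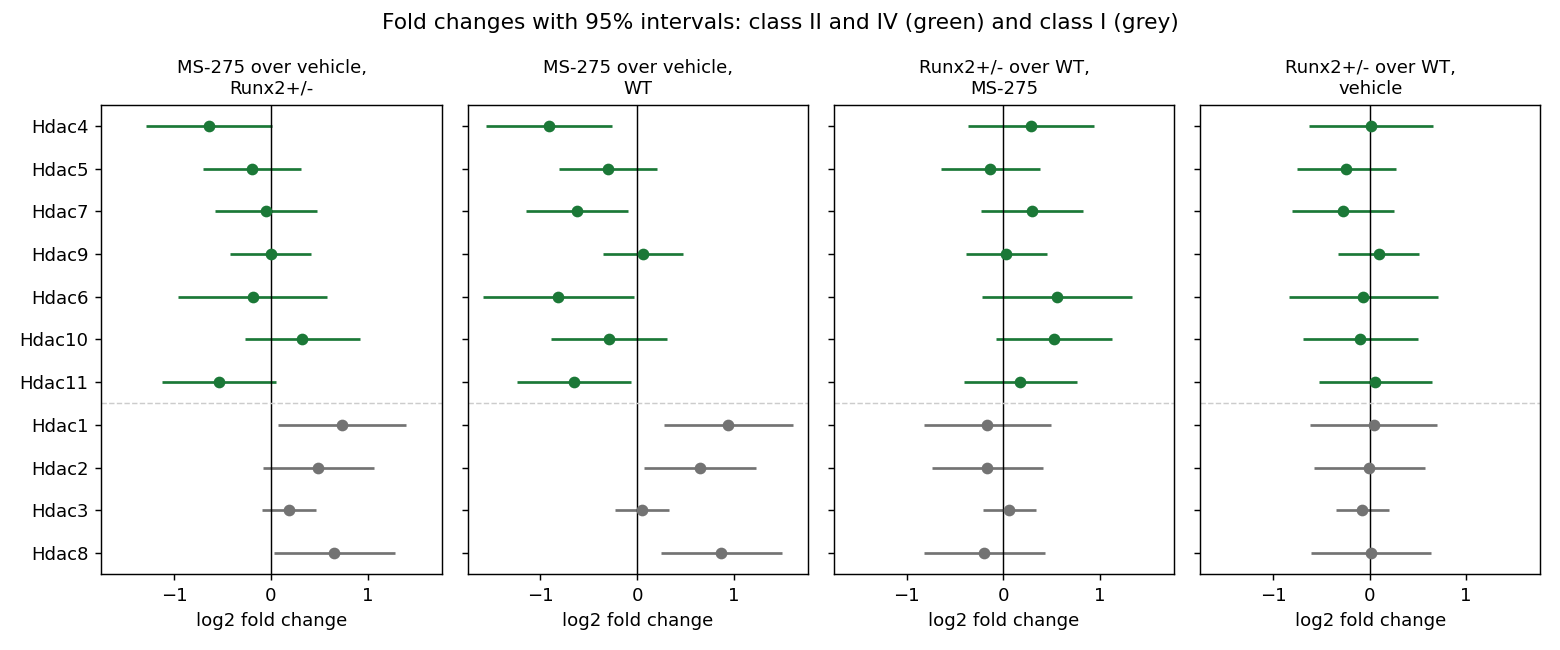
Log2 fold changes with 95% intervals of the 7 genes (green) and of the 4 class I genes (grey), for MS-275 over vehicle in Runx2+/- and in WT and for Runx2+/- over WT under MS-275 and under vehicle. In WT the intervals of Hdac4, Hdac6, Hdac7 and Hdac11 lie below 0 and those of Hdac1, Hdac2 and Hdac8 above it, before adjustment over all genes, and under vehicle every interval holds 0.

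Between the genotypes under vehicle no member was called. Runx2+/- and WT vehicle libraries overlapped for all 7 genes, and the log2 fold changes, Runx2+/- over WT, ran from −0.28 (SE 0.24) for Hdac7 to 0.09 (SE 0.19) for Hdac9, each with an edgeR adjusted p of 1.00. The value was 0.01 (95% interval −0.63 to 0.65) for Hdac4 and −0.07 (95% interval −0.84 to 0.70) for Hdac6, intervals that hold differences of either sign. By edgeR 0.0% of the genes were called, 55 had an unadjusted p under 0.05 and DESeq2 called 0, while 2.09% lay below and 2.69% above with no overlap.

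Under MS-275, 6 of 7 members had a higher mean in Runx2+/- than in WT, and none was called. Mean levels were 34.2 ± 19.2 CPM in Runx2+/- and 23.3 ± 0.938 CPM in WT for Hdac6, and 20.9 ± 8.14 CPM in Runx2+/- and 14.6 ± 1.66 CPM in WT for Hdac10 (SD, n = 3 each). The log2 fold changes were 0.56 (SE 0.35, edgeR adjusted p = 0.436) for Hdac6, 0.52 (SE 0.27, edgeR adjusted p = 0.365) for Hdac10, 0.30 for Hdac7, 0.29 for Hdac4, 0.18 for Hdac11, 0.03 for Hdac9 and −0.13 for Hdac5. Without replicate 3 of Runx2+/- MS-275 they were −0.00 for Hdac6, 0.15 for Hdac10, −0.05 for Hdac7, 0.31 for Hdac4, −0.03 for Hdac11, 0.07 for Hdac9 and −0.38 for Hdac5. The groups overlapped for all 7, where 7.52% of all genes lay below and 9.13% above with no overlap, and edgeR called 0.0% of all genes (2832 had an unadjusted p under 0.05, and DESeq2 called 702).

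The difference between the drug responses of the genotypes was tested directly. The interaction, the log2 fold change in Runx2+/- minus that in WT, was 0.63 (SE 0.49) for Hdac6, 0.62 (SE 0.38) for Hdac10, 0.57 (SE 0.34) for Hdac7, 0.27 (SE 0.41) for Hdac4, 0.12 (SE 0.37) for Hdac11, 0.11 (SE 0.33) for Hdac5 and −0.06 (SE 0.27) for Hdac9. None was called (edgeR adjusted p of at least 0.873), nor was any other gene (0.0%, while 953 had an unadjusted p under 0.05 and DESeq2 called 38). Without replicate 3 of Runx2+/- MS-275 the interaction was 0.06 for Hdac6, 0.25 for Hdac10, 0.23 for Hdac7, 0.30 for Hdac4, −0.09 for Hdac11, −0.14 for Hdac5 and −0.03 for Hdac9.

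Of class I, 3 of 4 genes lay higher with MS-275 in WT with no overlap between the groups, where 27.3% of all genes did. Hdac1, a catalytic subunit of the NuRD, Sin3 and CoREST complexes, had 126, 149 and 167 CPM in WT MS-275, against 75.5, 62.8 and 90.9 CPM in WT vehicle (log2 fold change 0.95, SE 0.30, edgeR adjusted p = 0.0501). Hdac8, which deacetylates the cohesin subunit SMC3, had 16.0, 19.8 and 22.6 CPM in WT MS-275, against 10.8, 9.80 and 11.4 CPM in WT vehicle (log2 fold change 0.87, SE 0.28, edgeR adjusted p = 0.0525). For Hdac2, the partner of Hdac1, the log2 fold change was 0.65 (SE 0.26, edgeR adjusted p = 0.0789), and for Hdac3, the catalytic partner of class IIa enzymes in corepressor complexes, it was 0.05 (SE 0.13, edgeR adjusted p = 0.762). By library size alone these values were 0.11 for Hdac1, 0.02 for Hdac8, −0.22 for Hdac2 and −0.78 for Hdac3, beside a median of all genes of −0.95. The 4 class I genes had 0 calls in every comparison, beside 19.0% of all genes called in WT. Without the 3 libraries that stood apart Hdac1 (1.08) and Hdac8 (0.91) were called higher in WT, where 60.3% of all genes were called in either direction.

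A ratio within a library does not depend on the scaling between libraries. The sum of the 7 genes per length was 14.3%, 24.8% and 48.4% of the class I sum in Runx2+/- MS-275, 26.1%, 19.6% and 16.5% in WT MS-275, 45.7%, 45.6% and 32.1% in Runx2+/- vehicle, and 43.5%, 47.9% and 42.1% in WT vehicle. WT MS-275 (20.8% ± 4.90) lay below WT vehicle (44.5% ± 3.01) with no overlap (SD, n = 3 each), and replicate 3 of Runx2+/- MS-275 had the highest ratio of the 12 libraries. Hdac4 had 2.83, 8.50 and 10.4 counts for every 100 Hdac1 counts in Runx2+/- MS-275, 6.35, 4.02 and 3.52 in WT MS-275, 20.1, 19.4 and 10.2 in Runx2+/- vehicle, and 15.9, 22.3 and 12.6 in WT vehicle. Here replicate 3 of Runx2+/- MS-275 stayed below the WT vehicle libraries and a little above the lowest Runx2+/- vehicle library. No p is given for these ratios, since the smallest that an exact permutation of 3 libraries against 3 allows is 0.1.

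**Figure D4:**
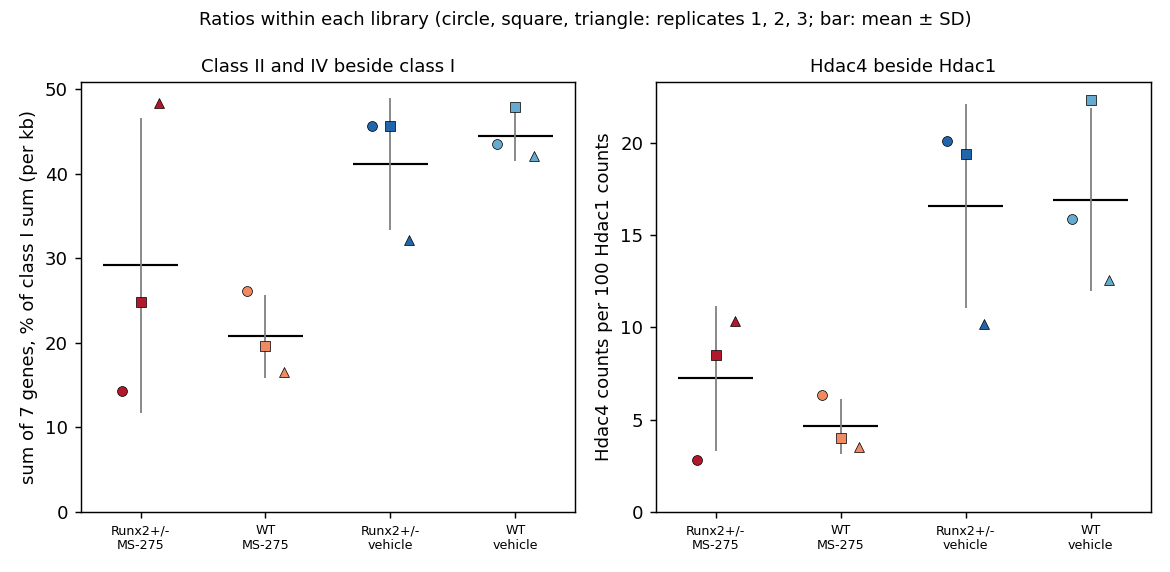
Left, the sum of the 7 genes as a percent of the sum of Hdac1, Hdac2, Hdac3 and Hdac8, both in CPM per kb; right, Hdac4 counts per 100 Hdac1 counts, with 1 point per library, the group mean as a bar and ± 1 SD as a line. WT MS-275 lies at 16.5% to 26.1% on the left and 3.52 to 6.35 on the right, below all vehicle libraries in both.

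The kinases that move class IIa enzymes out of the nucleus were read next, from lists of the pathway. In WT, 1 of 16 was called higher with MS-275 and 1 lower, beside 19.0% of all genes called, with a median log2 fold change of −0.29. Sik1, a kinase that phosphorylates HDAC4 and HDAC5, was called lower at 15.2 ± 3.31 CPM in WT MS-275 against 42.9 ± 2.05 CPM in WT vehicle (SD, n = 3 each, log2 fold change −1.50, SE 0.29, edgeR adjusted p = 0.0434). Prkd3, a protein kinase D, was called higher at 187 ± 19.2 CPM in WT MS-275 against 98.0 ± 13.5 CPM in WT vehicle (log2 fold change 0.94, edgeR adjusted p = 0.0482). Of the 7 genes for 14-3-3 proteins, the cytoplasmic anchors, 1 was called and the median was −0.26: Sfn, at 1.49 ± 0.372 CPM in WT MS-275 against 62.5 ± 23.5 CPM in WT vehicle (log2 fold change −5.39, edgeR adjusted p = 0.0434). Sfn is also the 14-3-3 gene of epidermis, whose markers fell with it.

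MEF2 factors and the other partners of class IIa enzymes gave 0 calls among 11 tested of 12 in WT, beside 19.0% of all genes (median −0.35). Mef2a, a MEF2 factor that class IIa enzymes bind, had a log2 fold change of 0.56 (edgeR adjusted p = 0.0560). By library size alone Mef2a had a log2 fold change of −0.27, beside a median of all genes of −0.95 on that scale.

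Of the genes known to be repressed through class IIa enzymes, 8 of 10 were tested, and 3 were called higher and 1 lower in WT, beside 19.0% of all genes, with a median of 0.28. All 4 calls were lost together in 8 of the 12 fits that left out 1 library, as were those of the other lists. The 3 that rose are bone genes. Mmp13, the collagenase of hypertrophic cartilage and bone and a target held down by HDAC4 in mouse bone, had 557 ± 198 CPM in WT MS-275 against 79.2 ± 34.6 CPM in WT vehicle (log2 fold change 2.81, SE 0.86, edgeR adjusted p = 0.0476). Sost, which encodes the osteocyte WNT inhibitor sclerostin, had 13.3 ± 4.46 CPM in WT MS-275 against 2.31 ± 0.791 CPM in WT vehicle (log2 fold change 2.53, SE 0.77, edgeR adjusted p = 0.0476). Tnfsf11, which encodes the osteoclast cytokine RANKL, had 11.8 ± 2.68 CPM in WT MS-275 against 2.10 ± 0.801 CPM in WT vehicle (log2 fold change 2.49, SE 0.67, edgeR adjusted p = 0.0434). Chrna1, a subunit of the muscle acetylcholine receptor, fell to 4.20 ± 3.08 CPM in WT MS-275, against 14.3 ± 1.04 CPM in WT vehicle (log2 fold change −1.76, edgeR adjusted p = 0.0476). Osteoblast markers and skeletal muscle markers moved in the same directions as these genes, by the sums given above, and their part was not tested.

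The substrates and partners of HDAC6 gave 0 calls among 12 (median 0.46), with Prdx1, a peroxiredoxin deacetylated by HDAC6, at 0.0502 (log2 fold change 1.95) and Atat1, the tubulin acetyltransferase that opposes it, at 0.0586 (−2.37) as the lowest edgeR adjusted p. In polyamine metabolism, the pathway of the HDAC10 substrates, 1 of 10 was called higher and 1 lower in WT (median 0.35). Sat1, which acetylates spermidine and spermine, had 116 ± 28.8 CPM in WT MS-275 against 46.9 ± 14.7 CPM in WT vehicle (log2 fold change 1.31, edgeR adjusted p = 0.0468). Sms, the X-linked spermine synthase, had 33.0 ± 0.762 CPM in WT MS-275 against 70.1 ± 17.7 CPM in WT vehicle (log2 fold change −1.09, edgeR adjusted p = 0.0472). Medians of all lists are read beside −0.13, the median over all genes in WT, and their calls beside the 19.0% of all genes called there.

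All 9 list genes called in WT lost their call when replicate 1 or 2 of WT vehicle, replicate 1 or 2 of Runx2+/- vehicle, any replicate of WT MS-275 or replicate 2 of Runx2+/- MS-275 was left out. In each of those fits 0 genes were called at all, and the edgeR adjusted p of the 9 genes over the 12 left-out fits went up to 0.132 for Sik1 and 0.149 for Prkd3. Without replicate 3 of Runx2+/- vehicle 5 of 9 were called, beside 11.0% of all genes, and without replicate 3 of WT vehicle 8 of 9, beside 30.6%. Their log2 fold changes kept their sign, with −1.69 to −1.40 for Sik1, 2.55 to 3.24 for Mmp13, 2.22 to 2.80 for Sost and 2.29 to 2.85 for Tnfsf11. The replicate block, which fits the replicate number as a term, also gave 0 calls among the 9, and all 9 were called without the 3 libraries that stood apart. In Runx2+/-, in both genotype comparisons and in the interaction no list gene was called. There the lowest edgeR adjusted p-values with MS-275 over vehicle were 0.181 for Ctbp1 (log2 fold change −0.74), Jun (−1.19), Ywhah (−0.53) and Ywhae (−0.62).

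Genes that followed each member most closely over the 12 libraries were named by Pearson's r of log2 CPM, among genes with a mean of at least 1 CPM. They were Irs2 (0.983) and Ago2 (0.982) for Hdac4, Ap3d1 (0.952) and Slc6a8 (0.951) for Hdac5, and Ccdc134 (0.970) and Rnpepl1 (0.960) for Hdac7. For Hdac6 they were 4930402H24Rik and Ovgp1 (0.988 each), for Hdac10 Stxbp2 (0.964) and Kcp (0.950), and for Hdac11 Dnm1 (0.973) and Sox21 (0.966). Hdac9 had the lowest such values, 0.863 with Pabpc5 and 0.849 with Chil3. The points share the drug groups and the libraries that stood apart, so these values describe a shared pattern over 12 libraries and carry no p.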

How the data were processed

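RNA of 12 calvaria samples was sequenced from stranded total RNA libraries, per the labels' protocols. The deposited files hold whole-number counts of reads for each Ensembl gene, which the authors made with Trimmomatic, Bowtie2, SAMtools and HTSeq, per the submitters' processing notes, with no versions or strand setting given there. Those notes name GRCh38.p7, a human build, while the identifiers in the files are mouse. The files hold no coordinates, so positions come from GENCODE M21 by identifier and promoters from RefSeq (GRCm38.p6). Of the 39179 identifiers, 37607 had a symbol. Summary entries were set aside. Per library they held 5.21% to 22.2% (no gene) and 3.25% to 4.78% (ambiguous) of uniquely aligned reads, and 14.01% to 20.1% of all reads had several alignments. The no-gene share was 10.5% to 16.8% with vehicle. It was 22.2% in replicate 3 of Runx2+/- MS-275 and 5.21% to 8.65% in the other MS-275 libraries. Genes with a count numbered 22205 to 24210 with vehicle, 24666 in that replicate 3 and 20008 to 21387 in the other MS-275 libraries. What part this difference has in the comparisons of MS-275 with vehicle was not tested. No molecular identifiers were used, so reads are not independent molecules and the floor covers counting error only.

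The filter was filterByExpr with the 4 groups (17967 genes), and TMM factors were 0.598 to 1.33. All 12 libraries were fitted with 4 group means in edgeR 4.0.16 (R 4.3.3; glmQLFit, robust, then glmQLFTest). The fit had 8 residual degrees of freedom and a common biological coefficient of variation of 0.442. Tests are two-sided, with Benjamini-Hochberg adjustment over all genes tested and a threshold of 0.05. The pipeline was tested on simulated data. Alternatives were size factors of DESeq2, library size only, no filter, DESeq2 1.42.0, limma-voom of limma 3.58.1, only the groups compared, a replicate block, a Xist covariate and each library left out in turn. Every same-numbered pair deviated together (r over 0.1) between the vehicle groups, with r of 0.230 to 0.802, and in no other comparison. Pairs of unlike number there had r of −0.813 to 0.668, so some agreed as well as same-numbered pairs. The check therefore cannot show that the numbers pair the samples, and the labels do not say what the numbers mark. Named genes were all members, from each list up to 4 called genes by lowest p or else the 2 with the lowest p, and for each member the 2 genes with the highest r. A gene that this rule also names is not reported here. Likeness used log2 CPM with a prior count of 1. The members, the lists and the tests were chosen with earlier results of these data known. Figures were drawn with matplotlib 3.10.9 under Python 3.11.15.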

Additional observations from a re-analysis of the deposited data

How the results depend on the processing

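Members called in WT (0 of 7) became 1 with size factors of DESeq2 in place of TMM, 5 with library size only, 2 with DESeq2, 4 with only the groups compared, 5 without the 3 libraries that stood apart and 0 to 4 with 1 library left out. Genes called in WT (3414) became 7535 with library size only (526 higher, 7009 lower), 7223 with DESeq2, 7309 with only the groups compared, 10887 without the 3 libraries, 1 with limma-voom and 0 with no filter, with the replicate block and with the Xist covariate, and 0 to 8480 with 1 library left out; the cause was not tested. In Runx2+/- DESeq2 called 1220 genes, the fit without the 3 libraries 9543 genes and 4 members, and left-out fits 0 to 5955 genes and 0 to 1 members. For genotype under MS-275 the counts were 702 with DESeq2, 1 without the 3 libraries and 0 to 23 with 1 library left out. For the interaction they were 38 with DESeq2 and 0 to 1 with 1 library left out. Under vehicle all fits gave 0, the replicate block included, which changed no call there. In WT, same-numbered deviations between MS-275 and vehicle had r of −0.390 to −0.0248.

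The sign turned for the following log2 fold changes, none of which edgeR had called. In WT Hdac9 was −0.79 with library size only, −0.00655 with no filter, −0.011 with only the groups compared and −0.011 without the 3 libraries; left-out fits gave −0.0056 to 0.19. In Runx2+/- Hdac7 was 0.042 with the Xist covariate, Hdac9 0.00208 with size factors of DESeq2, 0.00502 with the replicate block and 0.00138 with the Xist covariate, and Hdac10 −0.028 with library size only and −0.25 without the 3 libraries. Left-out fits there ran from −0.75 to 0.069 for Hdac6, −0.40 to 0.12 for Hdac7, −0.17 to 0.077 for Hdac9 and −0.043 to 0.49 for Hdac10. For genotype under MS-275 Hdac5 was 0.32 with library size only, and without the 3 libraries Hdac6 was −0.048, Hdac7 −0.10 and Hdac11 −0.061. Left-out fits ran from −0.013 to 0.51 for Hdac4, −0.38 to 0.052 for Hdac5, −0.0041 to 0.81 for Hdac6, −0.051 to 0.46 for Hdac7, −0.066 to 0.097 for Hdac9 and −0.027 to 0.44 for Hdac11. Under vehicle they ran from −0.14 to 0.17 for Hdac4, −0.29 to 0.11 for Hdac6, −0.20 to 0.049 for Hdac10 and −0.13 to 0.19 for Hdac11. The interaction without the 3 libraries was −0.26 for Hdac5, −0.015 for Hdac6 and −0.21 for Hdac11, and Hdac9 was 0.27 with library size only. Left-out fits of the interaction ran from −0.025 to 0.50 for Hdac4, −0.14 to 0.29 for Hdac5, −0.19 to 0.015 for Hdac9 and −0.087 to 0.38 for Hdac11. With library size only, Mef2a was −0.27 and Sirt2 −0.53 in WT, and Sirt2 −0.23 and Sirt5 −0.19 in Runx2+/-. Hdac4 had the lowest counts of the members, 57 to 328 a library.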

Other observations

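Sirtuins, the class III deacetylases, which use NAD in place of zinc, completed the family and gave 0 calls among 7 in every comparison. In WT, where 19.0% of all genes were called, their median log2 fold change for MS-275 over vehicle was −0.07, beside −0.13 over all genes. The lowest p-values in WT were those of Sirt7, a nucleolar enzyme (log2 fold change −0.85, SE 0.39, edgeR adjusted p = 0.111), and Sirt2, which like HDAC6 deacetylates tubulin (0.28, SE 0.14, edgeR adjusted p = 0.136). In Runx2+/- the values were 0.26 for Sirt2 (SE 0.14, edgeR adjusted p = 0.315) and 0.30 for Sirt5 (SE 0.25, edgeR adjusted p = 0.510).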
